A study of Mus musculus with 20 samples.

Results

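The amino acid transporters described here are the genes of 7 solute carrier families, Slc1, Slc3, Slc6, Slc7, Slc36, Slc38 and Slc43, as measured in 20 cells of the mouse inner cell mass. They were chosen by gene symbol alone, from probe sets that the platform annotation assigns to a single gene. This gave 58 genes (118 probe sets) of the 18193 genes named on the array. Where a gene had several probe sets, the brightest on average stood for it. The cells came from C57BL/6 blastocysts at embryonic day 3.5, were separated with trypsin-EDTA and picked at random, and each array held the amplified cDNA of 1 cell. Before hybridisation, cells had been kept when a PCR screen found Oct4 (Pou5f1) and no Cdx2. All 20 cells form 1 group in the labels.

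The cells were set side by side by their Fgf4 level, a growth factor gene of the epiblast, with a limit of 500 in the deposited intensity of its probe set. The 10 Fgf4-positive cells (1, 2, 7, 9, 12, 13, 14, 16, 18 and 19) read from 1568 to 4967. The 10 Fgf4-negative cells (3, 4, 5, 6, 8, 10, 11, 15, 17 and 20) read at most 5.37, so no cell lay near the limit. This split is a measured one, and the labels tie no cell to an embryo. Cells are therefore not treated as replicates of a condition, and no p-value is given. Differences are stated with the standard deviation over cells and with the overlap of the cells' values.

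Amino acid transporters are membrane proteins that carry amino acids and related small molecules into and out of cells, and physiologists group them into systems by substrate and ion coupling. Early mouse embryos take up amino acids from the fluid of the reproductive tract for protein synthesis, for control of cell volume and as signals for growth through the kinase complex mTORC1. Several light chains of the Slc7 family reach the membrane only when joined to a heavy chain of the Slc3 family.

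Levels are log2 of the quantile-normalized intensity. Values below 7.08 (an intensity of 135) were raised to that floor, which comes from probe sets of receptor genes of the nose and of genes particular to distant tissues. Of 42 such tissue genes with a probe set, 33 were above the floor in no cell. Others were above it, Cd3g and Ctrb1 in every cell and Crygd in 4 Fgf4-positive and 6 Fgf4-negative cells. Mylpf was above it in 9 and 7 cells and was higher in the former by 1.75. A value at the floor has no order and does not show that a transcript was absent, and levels of different probe sets are not compared with each other. Array floors ranged from 6.60 to 7.08. Between 36.2% and 37.8% of all genes were above the floor in a cell, and the median deposited intensity was 14.97 in cell 19 and at least 25.6 in the others. The epiblast list held 12 genes with a probe set. Beside Fgf4 itself, which made the split, 7 of them were above the floor in at least 3 cells. Of these, 5 (Nanog, Sox2, Klf2, Prdm14 and Utf1) were higher in the Fgf4-positive cells by at least 1, while Esrrb and Tdgf1 differed by 0.78 and 0.28. Fgf5 and Nodal stayed at the floor throughout. Otx2 exceeded it in 2 Fgf4-positive cells (difference 0.26) and Pou3f1 in 2 Fgf4-negative cells (-0.16). The primitive endoderm list held 16 genes with a probe set. The 12 above the floor in at least 3 cells all read lower in the Fgf4-positive cells by at least 1. Sox7 and Dab2 stayed at the floor throughout. Foxa2 and Lrp2 exceeded it in 2 Fgf4-negative cells each, and differed by -0.37 and -0.21. Pou5f1 was above the floor in all 20 cells. Of the 6 general pluripotency markers, Lin28a alone passed a difference of 1. It differed by -1.11, with 0 Fgf4-positive and 7 Fgf4-negative cells above the floor. Of 13 trophectoderm markers with a probe set, 7 were above the floor in no cell, among them Elf5, Gata3, Krt7, Krt18 and Krt19. The other 6 were above it in some cells. Tfap2c was above it in 8 Fgf4-positive and 5 Fgf4-negative cells and was higher in the former by 1.37. Cdx2 was above it in 6 and 9 cells in spite of the PCR screen, with means near the floor (7.36 and 7.41). Eomes was above it in 3 and 6 cells, Krt8 in 4 and 5, Tead4 in 5 and 7 and Lgals3 in 4 and 0. The summed level of the trophectoderm list, as a mean of centred values, ran from -0.80 to 0.51 in the Fgf4-positive and from -0.42 to 0.28 in the Fgf4-negative cells. The same measure for mitotic genes ran from -0.54 to 0.71 and from -1.74 to 0.47. Of the 22 mitotic genes compared, 8 were higher in Fgf4-positive cells by at least 1 and 0 lower (median difference 0.50). Over all genes the shares were 3.51% and 2.76%. The lowest values of the measure were those of the Fgf4-negative cells 4 (-1.74), 8 (-1.37), 20 (-0.89) and 17 (-0.65). The part of mitotic genes and of array intensity in the results below was not tested beyond leaving these cells out.

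As Slc1a1 and Slc1a3 share a transport system but differed in opposite directions, the 250 bases before the start of each gene are printed from RefSeq (GRCm38.p6). Of the 58 transporters, 41 had an entry in the RefSeq promoter table. The window of Slc1a1, above the floor in 19 cells, lies at chr19:28834885-28835134 on the plus strand. The window of Slc1a3, above the floor in Fgf4-negative cells only, lies at chr15:8710808-8711057 on the minus strand. Both are written 5′ to 3′ in the direction of the gene. Capitals mark matches on either strand. The motifs searched were GGGCGG, the GC box to which Sp1 binds, and CCAAT, the box bound by the factor NF-Y. Also searched were TATAAA, which is bound by the TATA-binding protein, and AGATAA, a motif of the GATA factors that act in primitive endoderm. The last motif was TGATGNAA, the core of the element through which shortage of amino acids acts on genes.
Slc1a1: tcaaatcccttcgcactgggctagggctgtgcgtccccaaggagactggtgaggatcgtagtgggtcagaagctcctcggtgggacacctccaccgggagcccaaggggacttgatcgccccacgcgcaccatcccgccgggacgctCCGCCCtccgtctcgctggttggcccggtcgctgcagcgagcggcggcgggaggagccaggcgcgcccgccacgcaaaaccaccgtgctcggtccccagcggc
Slc1a3: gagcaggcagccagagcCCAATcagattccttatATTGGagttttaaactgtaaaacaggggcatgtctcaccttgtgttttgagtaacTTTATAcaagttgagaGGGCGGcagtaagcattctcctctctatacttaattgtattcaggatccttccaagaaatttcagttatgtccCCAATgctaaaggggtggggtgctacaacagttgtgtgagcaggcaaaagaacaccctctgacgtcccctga

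The Slc1a1 window had a GC content of 70.4% and 1 GC box. The Slc1a3 window had a GC content of 44.8%, with 1 GC box, 3 CCAAT boxes and 1 TATA box, the last on the opposite strand and 155 bases from the start. Neither window held the GATA motif or the amino acid response core. Over all 32851 windows of the table, the GC box was found in 32.7%, the CCAAT box in 33.8%, the TATA box in 12.4%, the GATA motif in 9.99% and the amino acid response core in 3.45%. These matches describe letters in a window and say nothing about binding.

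The transporters ranged from unread to above the floor in every cell. By the probe set used, 26 were above it in no cell, 8 in 1 or 2 cells, 18 in 3 to 17 cells and 6 in at least 18 cells. Per cell, between 11 and 20 of the 58 were above the floor, with a median of 13.5 in the Fgf4-positive and 14.5 in the Fgf4-negative cells. The groups overlapped, and the highest count was that of the Fgf4-negative cell 10. Those above it in at least 3 cells, 24 transporters, were compared further, alongside 9413 of all genes. Of the 24, 4 were above the floor in at least 3 Fgf4-positive cells but in fewer than 3 Fgf4-negative cells, and 5 the reverse. Those at the floor in all cells of 1 kind had to differ, as they passed through the other kind. Slc36a1 (2 and 3 cells) and Slc38a6 (3 and 2 cells) did not have to, and differed by -0.09 and 0.49.

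At the limit of 1, transporters were higher in either kind of cell in equal number, a balance that did not hold under several other settings. The mean level was higher by at least 1, that is 2-fold, in the Fgf4-positive cells for 4 of the 24 (Slc7a3, Slc1a1, Slc6a6 and Slc6a14), where the share over all genes was 3.51%. It was lower by at least 1 for another 4 (Slc7a6, Slc7a2, Slc7a5 and Slc7a1), where the share over all genes was 2.76%. Each count is 16.7% of the 24. Of the called genes, Slc7a3 (8 Fgf4-positive and 0 Fgf4-negative cells above the floor), Slc6a14 (6 and 2) and Slc7a2 (0 and 5) met the filter through 1 kind of cell. Their calls are therefore not separate support for a difference. The difference also exceeded the larger standard deviation for 3 higher genes (12.5%, against 2.65% of all genes) and for 2 lower genes (8.33%, against 1.75%). For no transporter did the cells' values separate without overlap, which held for 0.0956% of all genes in the higher and 0.159% in the lower direction. The median difference of the 24 was 0.00, and that of all genes was 0.01. Nearest the limit of 1 were Slc6a14 (1.02) and Slc7a1 (-1.01) on the inside and Slc1a3 (-0.99) on the outside.

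**Figure D1:**
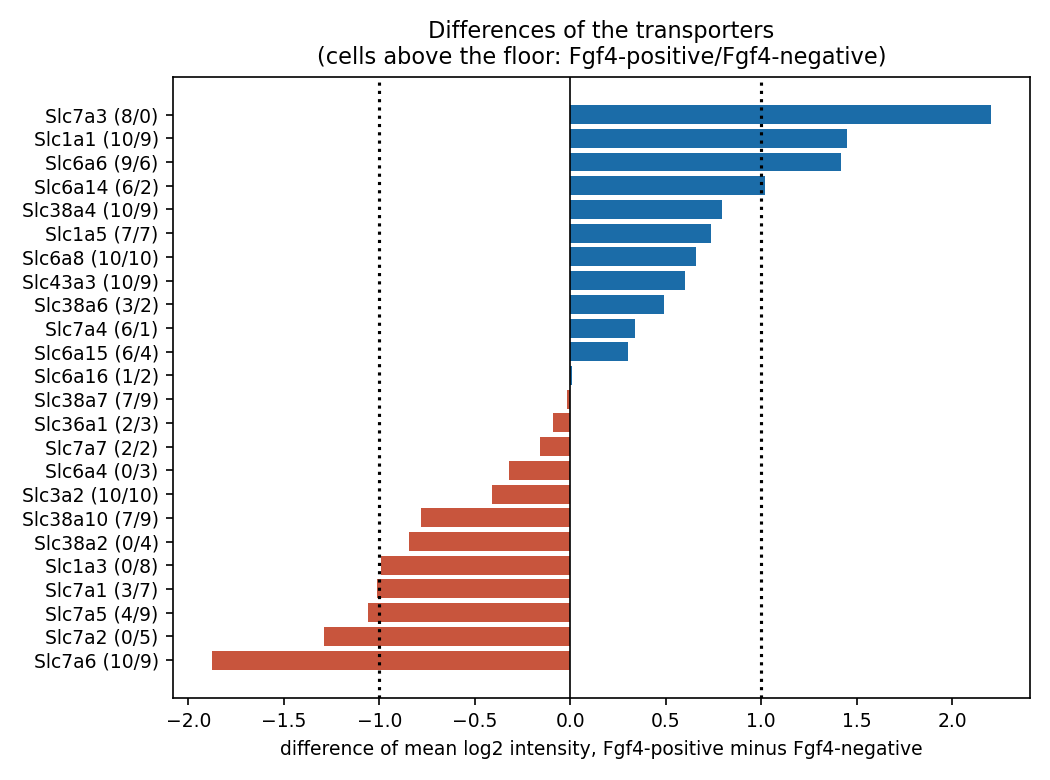
Bars give the difference of mean log2 intensity, Fgf4-positive minus Fgf4-negative cells (10 and 10), for the 24 transporters above the floor in at least 3 cells, and numbers in brackets give the cells above the floor in each kind. Dotted lines mark differences of 1. Slc7a3 (2.20) lies at the top and Slc7a6 (-1.88) at the bottom, with 4 bars past each line.

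In the cationic system y+, Slc7a3 was read in Fgf4-positive cells only, Slc7a2 in Fgf4-negative cells only and Slc7a1 in both. Its genes Slc7a1, Slc7a2 and Slc7a3 encode carriers of arginine, lysine and ornithine that need no sodium. Slc7a3 was above the floor in 8 of 10 Fgf4-positive and in 0 of 10 Fgf4-negative cells. In the Fgf4-positive cells its lowest, median and highest levels were 7.08, 9.35 and 11.71, the floor values being those of cells 1 and 2. Its mean was 9.28 ± 1.70 (SD, n = 10 cells) there, with all Fgf4-negative cells at the floor, a difference of 2.20. Slc7a3 therefore spread widely among Fgf4-positive cells, and was highest in cells 19, 18 and 16. Without cell 19 the difference was 1.93.

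Slc7a2 had the reverse pattern, with 5 Fgf4-negative and 0 Fgf4-positive cells above the floor. It read 10.91 in cell 4, 10.52 in cell 20, 9.81 in cell 17, 8.67 in cell 15 and 8.40 in cell 6, and the other Fgf4-negative cells were at the floor. Its difference of -1.29 was within the standard deviation of the Fgf4-negative cells (8.37 ± 1.55, SD, n = 10 cells). Cells 4, 20 and 17, the highest in Slc7a2, were among the 4 cells with the lowest mitotic gene levels, and without those 4 cells the difference was -0.48, short of the limit. The other 3 probe sets of Slc7a2 were above the floor in 2, 1 and 0 cells, and with all 4 averaged it differed by -0.36.

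Slc7a1, which many cell types use as their general cationic carrier, was above the floor in 3 Fgf4-positive and 7 Fgf4-negative cells. Its levels ran from 7.08 over a median of 7.08 to 9.13 in the former and from 7.08 over 8.24 to 10.83 in the latter. The means were 7.54 ± 0.77 and 8.55 ± 1.47 (SD, n = 10 cells each), and the difference of -1.01 was within that spread. It was -0.95 without cells 4, 8, 17 and 20, and -0.58 with the mean of its probe sets. A second probe set of the gene had a like count, with 2 Fgf4-positive and 7 Fgf4-negative cells above the floor.

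Taken cell by cell, 13 of the 20 cells had exactly 1 of the 3 y+ genes above the floor, 5 had 2, and cells 2 and 5 had none. Slc7a3 and Slc7a2 were never above the floor in the same cell, and Slc7a3 and Slc7a1 were both above it in cells 7 and 19. Slc7a1 and Slc7a2 were both above it in 3 Fgf4-negative cells (4, 15 and 20). Because the members moved apart, the mean of their centred levels hardly differed, at -0.02 ± 0.68 in the Fgf4-positive and 0.02 ± 0.77 (SD, n = 10 cells) in the Fgf4-negative cells. Slc7a4, a relative without a settled substrate, was dim, with a highest level of 7.99, and was above the floor in 6 Fgf4-positive cells and 1 Fgf4-negative cell. It differed by 0.34.

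**Figure D2:**
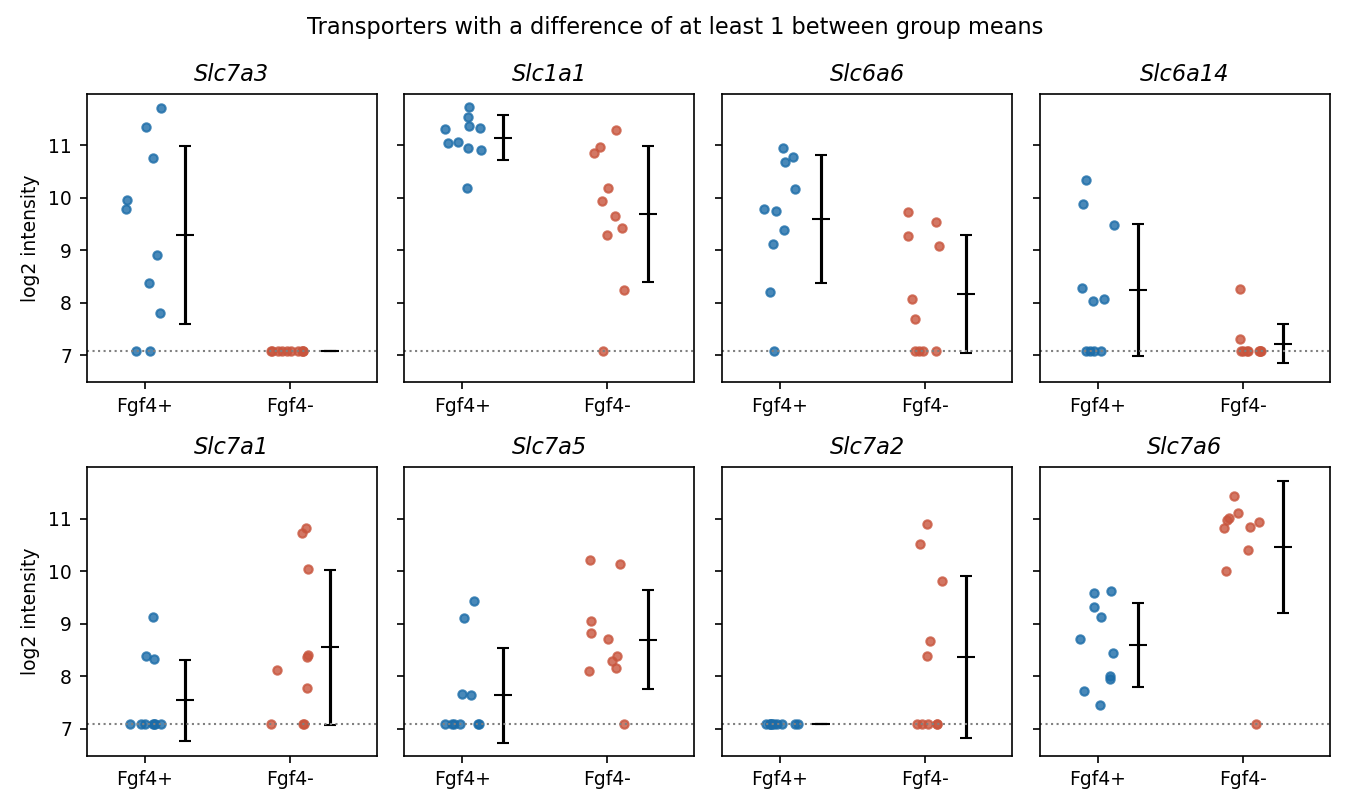
Each point is 1 cell, the vertical axis is log2 intensity, bars give the mean and standard deviation over 10 cells, and the dotted line is the floor of 7.08. The 4 transporters of the upper row had the higher mean in Fgf4-positive cells and the 4 of the lower row in Fgf4-negative cells. Slc7a3 is at the floor in all Fgf4-negative cells, and in Slc7a6 cell 17 lies apart from the other 9 Fgf4-negative cells.

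Among the light chains that join the Slc3a2 heavy chain, Slc7a6 showed the largest difference of all transporters lower in Fgf4-positive cells. It encodes a system y+L exchanger, which trades cationic for neutral amino acids with sodium. In the Fgf4-positive cells its lowest, median and highest levels were 7.45, 8.57 and 9.62. In the Fgf4-negative cells cell 17 was at the floor and the other 9 reached up to 11.43 and all lay above every Fgf4-positive cell. The means were 8.59 ± 0.80 and 10.47 ± 1.25 (SD, n = 10 cells each), a difference of -1.88 that exceeded the spread. It was -2.25 without cells 4, 8, 17 and 20. The second probe set gave -1.59, with 6 Fgf4-positive and 9 Fgf4-negative cells above the floor. The other y+L gene, Slc7a7, was above the floor in 2 cells of each kind and differed by -0.16.

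Slc7a5, the light chain of system L, which imports leucine and other large neutral amino acids, went the same way. It was above the floor in 4 Fgf4-positive and 9 Fgf4-negative cells, with means of 7.63 ± 0.90 and 8.70 ± 0.94 (SD, n = 10 cells each). The difference of -1.06 exceeded the spread. It was -0.56, short of the limit, without cells 4, 8, 17 and 20. Its highest levels were in cells 4 (10.21) and 17 (10.14). Slc3a2, the heavy chain itself, was above the floor in all 20 cells and within a narrow range, from 9.84 to 11.04 in Fgf4-positive and from 10.04 to 11.32 in Fgf4-negative cells. Its means were 10.47 ± 0.42 and 10.88 ± 0.40, and the difference of -0.41 was within the spread. All 20 cells thus had the heavy chain with Slc7a5, Slc7a6 or both above the floor: both in 12, Slc7a6 without Slc7a5 in 7 and Slc7a5 without Slc7a6 in cell 17. Of the other system L genes, Slc43a1 was above the floor in 2 Fgf4-positive cells, Slc7a8 in 1, and Slc43a2 in none. The heavy chain Slc3a1 and its light chain Slc7a9, the cystine carrier of kidney and gut, were above the floor in no cell. Neither was Slc7a11, the light chain of the cystine and glutamate exchanger xc-.

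The sodium-coupled glutamate and aspartate transporters, system X-AG, also divided. Slc1a1, a carrier of glutamate, aspartate and cysteine, was above the floor in every Fgf4-positive cell and in 9 Fgf4-negative cells. Its levels ran from 10.18 over a median of 11.18 to 11.74 in Fgf4-positive cells and from 7.08 over 9.79 to 11.29 in Fgf4-negative cells. The Fgf4-positive cells were thus uniformly high while the Fgf4-negative cells were scattered, lowest in cells 4 (7.08) and 17 (8.24). The means were 11.15 ± 0.43 and 9.69 ± 1.29 (SD, n = 10 cells each), and the difference of 1.45 exceeded the spread. It was 0.90 without cells 4, 8, 17 and 20. The other 2 probe sets were dimmer, with differences of 0.65 and 0.10, and the mean of all 3 gave 0.73.

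Slc1a3, the glutamate transporter best known from astrocytes, was above the floor in 8 Fgf4-negative and in 0 Fgf4-positive cells. It read 9.71 in cell 4, 9.50 in cell 15, 8.99 in cell 3, 8.16 in cell 11, 7.89 in cell 6, 7.79 in cell 10, 7.36 in cell 8 and 7.15 in cell 20. Cells 5 and 17 were at the floor with all Fgf4-positive cells. Its mean in Fgf4-negative cells was 8.07 ± 1.0 (SD, n = 10 cells), and the difference was -0.99. Of its 6 probe sets, 2 others gave -0.95 and -0.80, the latter with 1 Fgf4-positive cell above the floor, and the remaining 3 were above the floor in 1, 1 and 0 cells. Cell 4 had the highest Slc1a3 and the lowest Slc1a1 of the Fgf4-negative cells, while 7 of them had both above the floor. Slc1a2, Slc1a6 and Slc1a7 were above the floor in 2, 0 and 1 of the 20 cells.

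**Figure D3:**
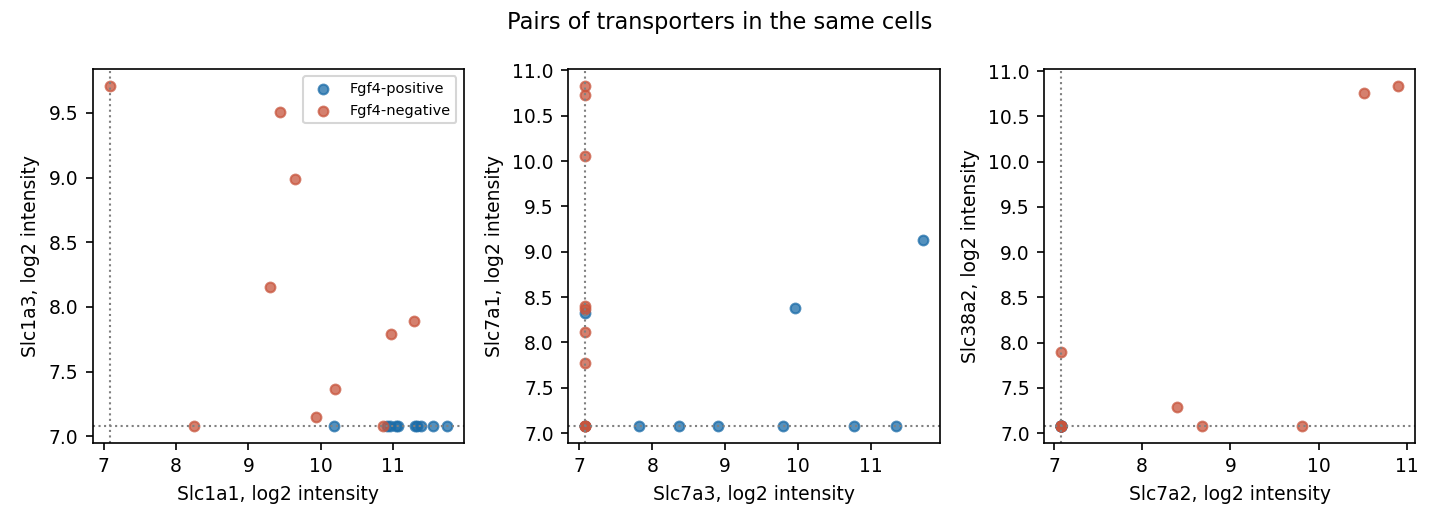
Each point is 1 cell and both axes are log2 intensity, with dotted lines at the floor of 7.08. Slc1a3 is above the floor in Fgf4-negative cells only, and in the middle plot 2 cells have both Slc7a3 and Slc7a1 above it. At the right, cells 4 and 20 stand alone at the top with both Slc7a2 and Slc38a2 above 10.

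System A carriers bring in small neutral amino acids such as alanine with sodium. Slc38a4 was above the floor in 19 cells, with levels from 9.83 to 11.54 in Fgf4-positive and from 7.08 to 11.59 in Fgf4-negative cells. Its difference of 0.79 was within the spread (10.74 ± 0.61 against 9.94 ± 1.35, SD, n = 10 cells each), and its second probe set differed by -0.25, so its direction is not settled. Slc38a2, a carrier that cells raise when amino acids are short, was above the floor in 4 Fgf4-negative cells only. It read 10.83 in cell 4 and 10.76 in cell 20, and 7.90 and 7.29 in cells 10 and 6. The difference of -0.85 thus came mostly from a pair of cells, which were also the highest in Slc7a2. Both cells had low mitotic gene levels. Slc38a1, the third gene of the system, and the system N genes Slc38a3 and Slc38a5 were above the floor in no cell.

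Exchangers of system ASC carry alanine, serine, cysteine and, in Slc1a5, glutamine. Slc1a5 was above the floor in 7 cells of each kind. Its levels ran from 7.08 over 8.97 to 10.68 in Fgf4-positive cells and from 7.08 over 7.81 to 9.18 in Fgf4-negative cells. The means of 8.64 ± 1.29 and 7.91 ± 0.78 (SD, n = 10 cells each) differed by 0.74, within the spread. Slc1a4 was above the floor in 2 cells and Slc7a10 in none.

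Among the Slc6 genes, Slc6a6 and Slc6a14 were higher in Fgf4-positive cells by at least 1, the latter as the only one of the 5 genes of systems B0 and B0,+. Slc6a6 carries taurine, a sulfonic acid that cells use to control volume. It was above the floor in 9 Fgf4-positive cells, where its levels ran from 7.08 over 9.77 to 10.94. It was above the floor in 6 Fgf4-negative cells, with levels from 7.08 over 7.88 to 9.73. The means were 9.59 ± 1.22 and 8.17 ± 1.12 (SD, n = 10 cells each), and the difference of 1.42 exceeded the spread although the groups overlapped. Of its other 3 probe sets, 1 was above the floor in 8 Fgf4-positive cells and 1 Fgf4-negative cell (difference 0.56), 1 in 6 cells of each kind (0.12) and 1 in none. The mean of all 4 differed by 0.53.

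Slc6a14, the gene of system B0,+, takes up both neutral and cationic amino acids and is known from blastocysts as a leucine carrier. It was above the floor in 6 Fgf4-positive cells, at 10.34 in cell 14, 9.89 in cell 19, 9.49 in cell 16, 8.29 in cell 7, 8.07 in cell 13 and 8.04 in cell 18. In the Fgf4-negative cells it was above the floor in cells 5 (8.26) and 10 (7.31). The difference of 1.02 was within the spread of the Fgf4-positive cells (8.24 ± 1.25, SD, n = 10 cells). It was 0.84 without cell 19, 0.93 without cells 4, 8, 17 and 20, and 0.52 with the mean of both probe sets. All 6 Fgf4-positive cells with Slc6a14 above the floor also had Slc7a3 above it, and 2 more had Slc7a3 without Slc6a14. Slc6a15, a carrier of branched-chain amino acids and proline, was above the floor in 6 Fgf4-positive and 4 Fgf4-negative cells and differed by 0.30, or by -0.18 without cells 4, 8, 17 and 20.

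Slc6a8, the creatine transporter, was above the floor in all 20 cells, from 10.85 to 12.11 in Fgf4-positive and from 9.09 to 12.13 in Fgf4-negative cells. Its difference was 0.66 by the brighter probe set (11.49 ± 0.44 against 10.83 ± 0.89, SD, n = 10 cells each) and -0.50 by the other, which was also above the floor in every cell. The probe sets thus disagreed in sign. Slc6a9, which brings glycine into the early embryo, was above the floor in 1 cell, and the glycine and proline genes Slc6a5 and Slc6a7 in none. The serotonin transporter gene Slc6a4 was above it in 3 Fgf4-negative cells, the highest at 8.51. Slc6a16, a gene without a settled substrate, was above it in 3 cells, none over 7.44.

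The remaining genes were listed as lysosomal, poorly characterised or proton-coupled, and Slc43a3 was placed among them although a substrate is known. Slc43a3, a carrier of purine nucleobases in spite of its family, was above the floor in 19 cells. Its means were 9.48 ± 0.89 in Fgf4-positive and 8.88 ± 1.29 (SD, n = 10 cells each) in Fgf4-negative cells, and the difference of 0.60 was within the spread. Slc38a7, a lysosomal glutamine carrier, was above the floor in 7 Fgf4-positive and 9 Fgf4-negative cells and differed by -0.02. Slc38a10 was above it in 7 and 9 cells and differed by -0.78, and 3 of its other 6 probe sets gave between -0.87 and -0.70. Slc38a6 reached 10.48 in 1 Fgf4-positive cell and was above the floor in 5 cells in all. Of the proton-coupled carriers, Slc36a1 was above the floor in 5 cells and differed by -0.09, and Slc36a4 was above it in 1. Slc38a9, a lysosomal arginine sensor, was above the floor in 1 cell.

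The other transporters above the floor in no cell were the monoamine carriers Slc6a2 (noradrenaline) and Slc6a3 (dopamine), the GABA and betaine carriers Slc6a11, Slc6a12 and Slc6a13, the neutral carriers Slc6a17, Slc6a18 and Slc6a19, and Slc6a21. The proton-coupled Slc36a2 and Slc36a3 and the Slc7 relatives Slc7a12, Slc7a13, Slc7a14 and Slc7a15 were likewise above it in none. Of the 26, 25 stayed at the floor by every probe set they have, and a second probe set of Slc6a2 was above it in 1 Fgf4-negative cell.

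**Figure D4:**
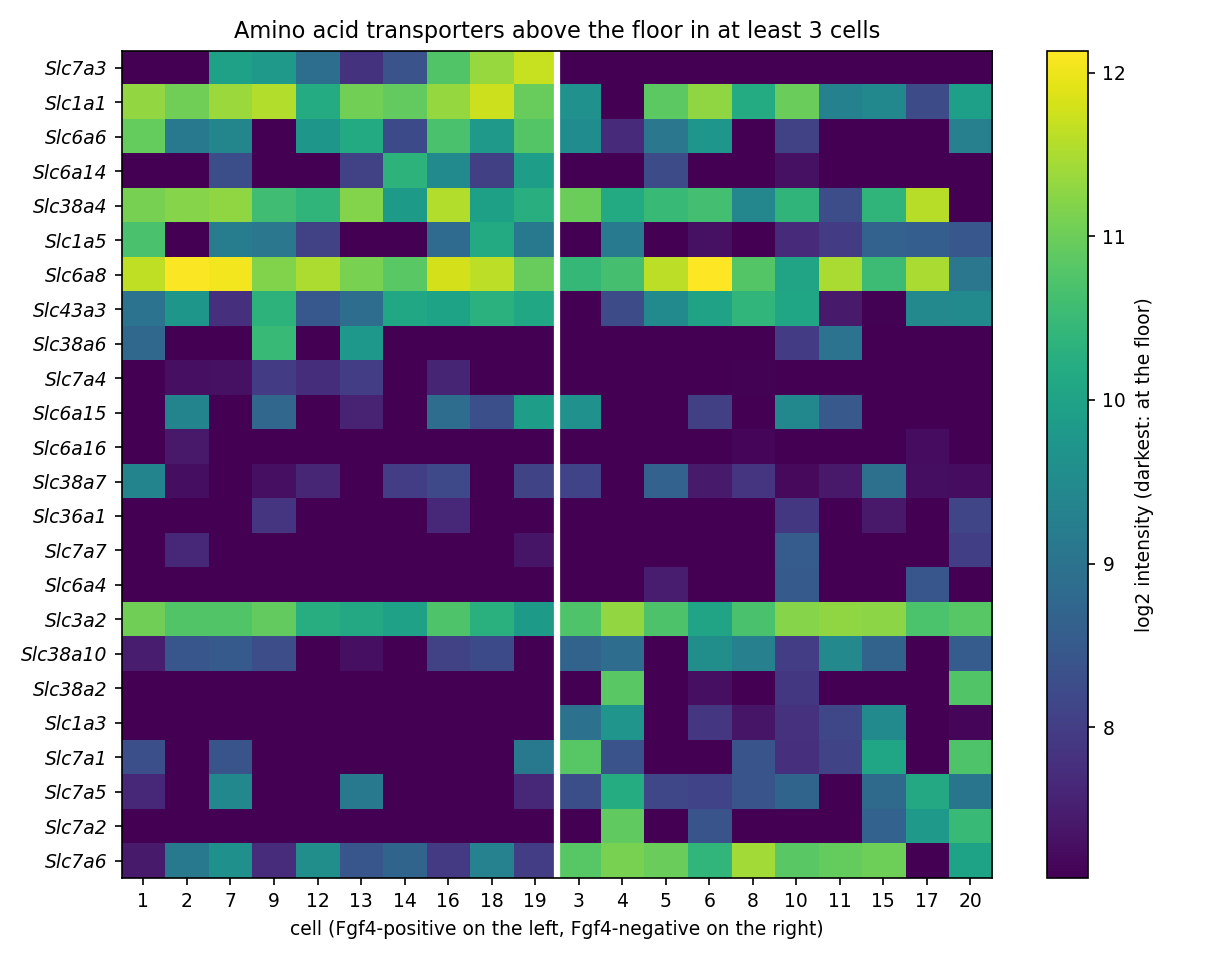
Rows are the 24 transporters above the floor in at least 3 cells, ordered by difference, columns are the 20 cells with Fgf4-positive cells left of the white line, and the colour is log2 intensity with the floor of 7.08 darkest. Slc3a2 and Slc6a8 are above the floor in every cell, Slc7a3 fills 8 columns on the left and none on the right, and Slc7a6 is bright in 9 of the 10 columns on the right.

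Among the other listed amino acid carriers and the amino acid sensing genes that were compared, none passed a difference of 1. Of 20 listed carriers outside these families, 19 had a probe set and 11 were above the floor in at least 3 cells, of which 0 were higher and 0 lower by at least 1 (median -0.06). The largest differences were those of the mitochondrial carrier genes Slc25a44 (0.32) and Slc25a15 (-0.30), the latter for ornithine. The list for amino acid sensing by mTORC1 held 42 genes, including parts of the complex and its targets. Of these, 38 had a probe set and 37 were compared, and again 0 passed in either direction (median -0.05). Over all genes 3.51% were higher and 2.76% lower, and at such shares lists this short would hold few such genes. Castor1, an arginine sensor, was above the floor in every cell, at 10.08 ± 0.23 in Fgf4-positive and 9.59 ± 0.39 (SD, n = 10 cells each) in Fgf4-negative cells, and the difference of 0.49 exceeded the spread. Tfeb, of the same list, exceeded the spread in the other direction, at 7.12 ± 0.14 and 7.79 ± 0.41, a difference of -0.67. Its levels were near the floor, with 1 Fgf4-positive and 9 Fgf4-negative cells above it. It thus met the filter through 1 kind of cell, and its difference is not separate support. How many of all genes exceeded the spread at a difference under 1 was not counted, so Castor1 and Tfeb are given as values only. The leucine sensor gene Sesn2 read 7.77 ± 0.78 and 8.54 ± 1.20, within the spread, and Mtor itself read 9.40 ± 1.33 and 9.05 ± 1.06.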

How the data were processed

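The authors deposited probe set intensity on a linear scale for 20 Affymetrix mouse arrays, with values from 1 to 26616. Per the labels' protocols, cDNA from the lysate of a cell went through PCR amplification and was turned into biotin-labelled cRNA. Normalization by the authors: not given in the sources used here, nor is their summarising software. The 64 control probe sets of 45101 were left out, the rest were quantile-normalized, and levels were raised to a floor and put on the log2 scale (Python 3.11.15, pandas 2.3.3). The floor was the highest over arrays of the 95th percentile of 148 probe sets. Of 34958 probe sets with 1 gene, 34754 matched RefSeq by Entrez identifier. Amplification of a cell's few transcripts can lose a transcript, so values at the floor are not read as absence, and the number of arrays limits the precision. Pairs of arrays sharing most values numbered 0.

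The members and lists were chosen with earlier results of these data known, so the split is not independent support for any direction. Transporters were described with values where they differed by at least 1, were above the floor in at least 18 cells or led their system in cells above the floor. The others above the floor in 3 cells, and those singled out to complete a family, were chosen after their values were seen. The comparison was checked on simulated data. The simulated base levels lay well above the floor and the planted differences were larger than most described here. The check therefore does not cover dim genes or differences near the limit. Alternatives changed the normalization, floor, probe set rule, filter, Fgf4 limit and cells.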

Additional observations from a re-analysis of the deposited data

How the results depend on the processing

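Limits of 250 or 1000 for Fgf4 gave the same split of the cells, and dropping the filter on low genes leaves a gene already compared as it was. These settings therefore could not end any of the 8 transporter calls. Without quantile normalization all 8 calls were kept, and Slc1a3 was added as lower. The floor of each array also kept all 8, and added Slc1a3 and Slc38a2 as lower. With values under the floor taken as read, 8 transporters were higher, the median difference was 0.27, and 1188 genes were higher and 858 lower in place of 330 and 260. All 8 calls were kept there, 6 were added, and differences of dim genes grew (Slc7a3 4.75, Slc6a6 2.93, Slc6a14 2.58, Slc7a5 -2.27, Slc7a1 -2.91 and Slc7a2 -3.01). With the mean of all probe sets, 1 transporter was higher (Slc7a3) and 2 lower (Slc7a5 and Slc7a6), with 183 and 131 of all genes. Dim probe sets enter that mean at the floor. Brighter ones could have a smaller difference, as in Slc1a1 (0.65), or the opposite sign, as in Slc6a8 (-0.50). What each of these contributed was not tested. Leaving out cell 19 ended the call of Slc6a14. Without cells 4, 8, 17 and 20, 2 transporters were lower, 3 of the 8 calls were kept (Slc7a3, Slc6a6 and Slc7a6), and Slc1a5 (1.01) and Slc1a3 were added. No named difference past 1 reversed its sign under these alternatives.
Slc6a15, which was short of the limit, differed by -0.18 without those 4 cells.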
